A study of Mus musculus with 36 samples.

Results

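Retinoic acid carries a positional and differentiation signal in the embryonic kidney. Retinol is oxidised to retinal, mainly by RDH10, and retinal is oxidised to retinoic acid by the ALDH1A enzymes. The acid is then carried inside the cell by the CRABP proteins, is read by the nuclear receptors RARα, RARβ and RARγ, which pair with RXR receptors on DNA, and is cleared by CYP26 enzymes. In the kidney, retinoic acid made by the stroma is known to act on the ureteric bud, where it maintains *Ret*. The genes described here are 10 members of this route, chosen by name among the 22761 genes of the table: *Rdh10*, *Aldh1a1*, *Aldh1a2*, *Aldh1a3*, *Crabp1*, *Crabp2*, *Rara*, *Rarb*, *Rarg* and *Cyp26b1*. All 10 were found once.

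The data are RNA sequencing values of 36 libraries in 9 groups of 4. Ureteric bud (UB), stromal progenitor (SP) and nephron progenitor (NP) cells were sorted from kidneys of CD1 mouse fetuses at E11.5 and at E12.5, and are called ex-fetu cells. Each ex-fetu library pooled the kidneys of all embryos of a mouse. The embryonic stem cell (ES) derived counterparts were engineered ureteric bud cells (eUB; the labels write iUB), induced stromal progenitors (iSP) and induced nephron progenitors (iNP), each library from embryoid bodies of a single differentiation batch. The labels and the sorting methods give a *Sox9-mCherry* mouse ES line for the eUB cells, although a *Sox8-mCherry* line is described elsewhere in the study; the labels were followed. The iSP and iNP cells were sorted from the same E14 ES cell cultures by low ITGA8 with high PDGFRA and by high ITGA8 with low PDGFRA. The same antigens served for ex-fetu SP and NP cells, and cells positive for the endothelial antigen CD31 or for EpCAM/RET were gated out before these sorts. Ex-fetu UB cells were gated on RET with EpCAM, and the gate for eUB was EpCAM with mCherry. Retinoic acid was itself a culture factor: by the study's methods it stayed in the eUB medium up to harvest, whereas iNP and iSP cultures received it in an earlier step and were sorted after its withdrawal. Cell line or mouse strain, culture medium and source therefore cannot be told apart between ES-derived and ex-fetu cells, and line and protocol cannot be told apart between eUB and iSP or iNP cells. In bulk samples, fewer cells of a type and less RNA per cell cannot be told apart either.

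Values are normalised CPM, that is, reads relative to library size and scaled by library factors, and the libraries held between 13.004 and 52.5 M reads on genes. A value of 3 reads, between 0.0605 and 0.223 normalised CPM, was taken as the limit of detection. Differences are of log2(normalised CPM + 1) and are given with their standard error (SE). A gene was called when its limma p-value, adjusted over all genes tested, was under 0.05. For ex-fetu UB the labels disagree on age: libraries with E11.5 in the title list an E12.5 source and the reverse, and the titles were followed here.

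Marker genes of each type followed the labels in the E11.5 groups. *Ret* lay between 361 and 369 in E11.5 UB, *Six2* between 557 and 641 in E11.5 NP, and *Foxd1* between 265 and 563 in E11.5 SP. In iSP cells *Pdgfra* (363 to 434) was above its E11.5 SP range (337 to 350), but the defining stromal marker *Foxd1* was at 11.4 to 19.2, and *Six2* in iNP cells was at 116 to 152. E12.5 UB replicate 1 stood apart. The summed level of 7 stromal markers was 312 in it against 16.6 to 35.9 in the other E12.5 UB libraries, the sum of 8 nephron progenitor markers was 434 against 53.0 to 83.7, and the sum of 8 ureteric bud markers was 2011 against 3016 to 3257. E12.5 NP replicate 1 had a ureteric bud sum of 85.4 against 21.1 to 29.4. In E12.5 SP replicate 1 the stromal sum was 3587 against 5838 to 6244 in the other E12.5 SP libraries. Where leaving out E12.5 UB or E12.5 SP replicate 1 turned a direction or changed a call, the value without it is given.

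The route was divided among the lineages. Ureteric bud cells held *Aldh1a1* and *Aldh1a3*, mesenchymal cells held *Aldh1a2*, and stromal cells led in *Crabp1*, *Rarb* and *Rarg*. ES-derived cells departed from this in several genes described below: iSP cells held less *Aldh1a2* than iNP cells, eUB cells held less *Rarg* than the ES-derived mesenchyme, and iNP cells held *Crabp1* at a level that overlapped E11.5 SP.

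**Figure D1:**
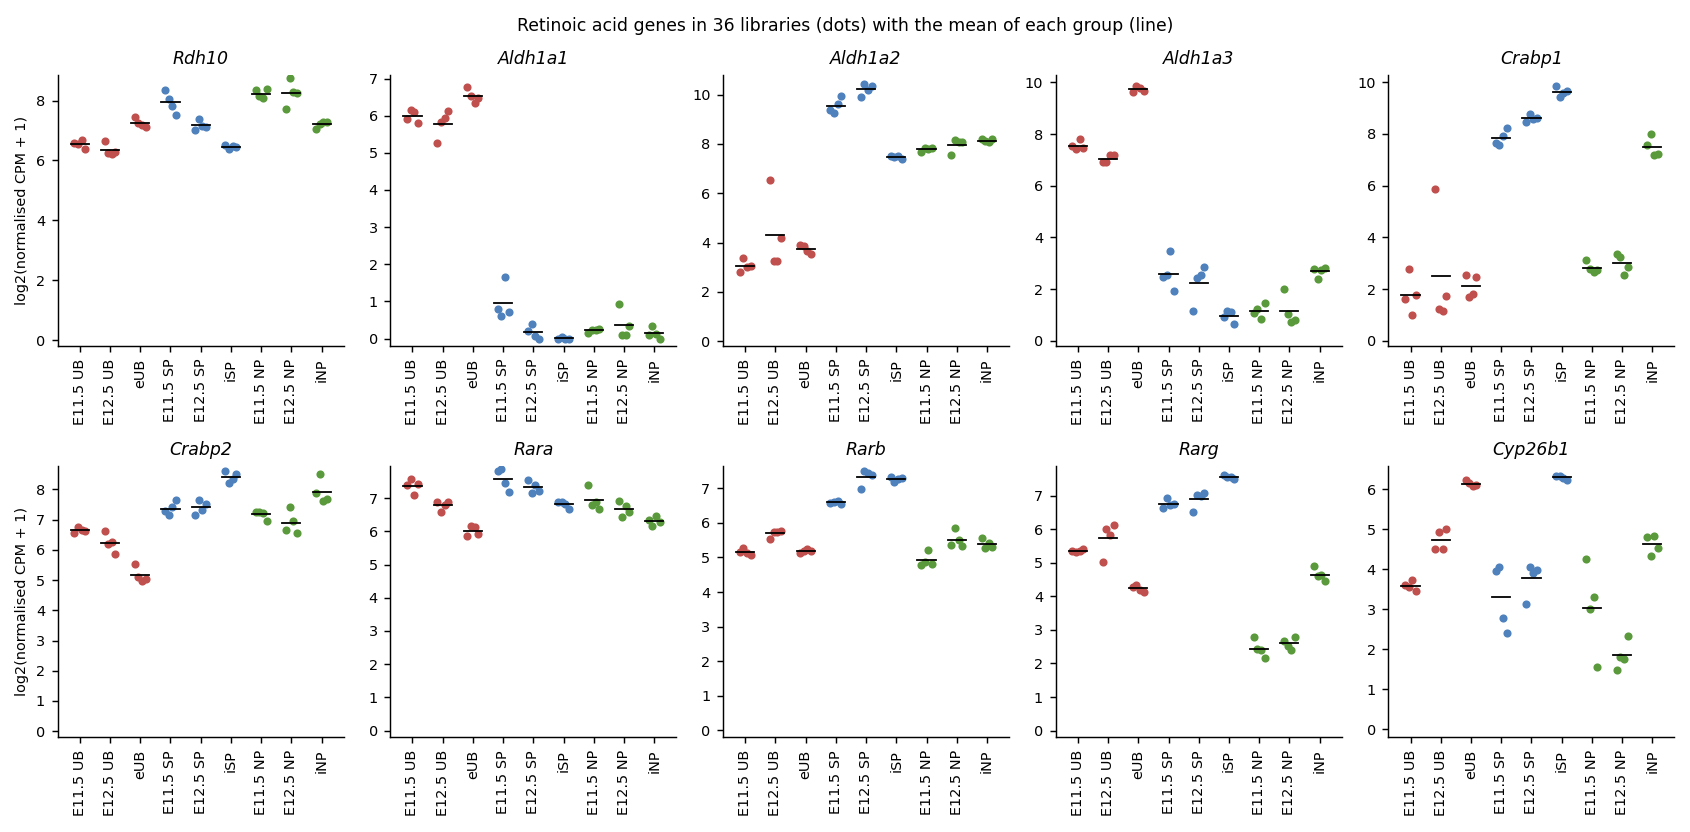
Each panel plots one gene, with log2(normalised CPM + 1) on the y axis, the 9 groups on the x axis, a dot for each of the 4 libraries of a group and a line at their mean; red, blue and green are UB, SP and NP types. *Aldh1a1* and *Aldh1a3* are high in the red groups, *Aldh1a2* in the blue and green groups, and the red dot high above the others in the *Aldh1a2* and *Crabp1* panels is E12.5 UB replicate 1.

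*Rdh10* encodes the retinol dehydrogenase of the first step, and lies on chromosome 1 (GRCm38, 16105774 to 16133734, plus strand). In E11.5 NP it was at 322, 280, 270 and 330, and in E12.5 NP at 209, 427, 314 and 305. In E11.5 SP it was at 327, 264, 226 and 184, which overlaps both NP groups, and in E12.5 SP it was at 129, 165, 142 and 137, below every NP library. The ES-derived mesenchymes were lower still than their E11.5 counterparts, with 82.7 to 91.1 in iSP and 133 to 153 in iNP. The eUB cells went the other way: *Rdh10* was at 176, 150, 144 and 137 in them, above all E11.5 UB libraries (81.5 to 102). The order of the 9 groups by mean ran from E12.5 NP (314 ± 89.2, SD, n = 4) to E12.5 UB (80.8 ± 12.2), and 6 of its 8 neighbouring pairs overlapped in range.

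*Aldh1a1* (chromosome 19, 20492715 to 20643465, plus strand) and *Aldh1a3* (chromosome 7, 66390890 to 66427517, minus strand) encode retinaldehyde dehydrogenases, and both were at their highest in ureteric bud cells. *Aldh1a3* was at 182, 171, 224 and 174 in E11.5 UB and at 120, 121, 145 and 144 in E12.5 UB. In eUB cells it was at 787, 917, 874 and 818, a mean 4.51 times that of E11.5 UB, and no library of these 3 groups overlapped with another group. *Aldh1a1* was at 58.8, 69.9, 67.3 and 55.4 in E11.5 UB, at 37.2, 55.5, 60.7 and 68.5 in E12.5 UB and at 108, 90.7, 80.05 and 88.6 in eUB. Every eUB library was above every ex-fetu UB library.

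In the mesenchymal groups *Aldh1a3* was at most 10.1 in any library, and *Aldh1a1* at most 2.15. The low *Aldh1a1* values of E11.5 SP (0.535 to 2.15) were above detection in all 4 libraries, whereas in iSP cells 3 of the 4 libraries were at 0 and the highest, 0.0358, was under the limit of detection. *Aldh1a1* passed the filter on low values in none of the comparisons among mesenchymal groups. *Aldh1a3* was at 1 or more in 2 of 4 iSP, 3 of 4 E11.5 NP and 2 of 4 E12.5 NP libraries, so that in comparisons of these with SP or iNP it passed through the higher group, and its calls there are a description. Although EpCAM/RET-positive cells had been gated out, E11.5 SP libraries carried ureteric bud markers, with sums of 122 to 282 against 77.9 to 85.6 in iSP; their part in the *Aldh1a1* and *Aldh1a3* values was not tested. *Aldh1a1* resembles the neighbouring family member *Aldh1a7* (88.8% identity over 2036 aligned bases of transcript), which reached 19.6 in a ureteric bud library, so that reads could have been split between them.

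*Aldh1a2* encodes the retinaldehyde dehydrogenase of embryonic mesenchyme (chromosome 9, 71215789 to 71296243, plus strand), and it was the most abundant ALDH1A gene outside the ureteric bud. It was at 664, 605, 784 and 983 in E11.5 SP and at 965, 1383, 1158 and 1302 in E12.5 SP. In E11.5 NP it was at 205, 225, 222 and 230. The iNP libraries stood at 291, 274, 269 and 290, just above E11.5 NP, while the iSP libraries stood at 182, 176, 179 and 165, below every NP and iNP library and 4.32-fold below the mean of E11.5 SP. UB libraries held little: 5.94 to 9.33 in E11.5 UB and 10.6 to 14.0 in eUB. In E12.5 UB replicate 1 it was at 92.3 and in the other 3 E12.5 UB libraries at 8.45 to 17.1.

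Per kilobase of exon, which allows genes to be compared, *Aldh1a3* made up 71.7% ± 3.23 (SD, n = 4) of the summed ALDH1A level in E11.5 UB and 88.4% ± 1.75 in eUB. *Aldh1a1* accounted for 22.5% ± 2.11 and 8.98% ± 1.46 in these groups. *Aldh1a2* accounted for between 99.0% and 99.9% of the sum in each SP, NP, iSP and iNP library. The summed ALDH1A level per kilobase was 337 ± 73.7 in E11.5 SP and 77.8 ± 3.31 in iSP, and it was 56.8 ± 5.89 in E11.5 UB and 208 ± 11.3 in eUB. Among ex-fetu cells at E11.5 the stroma held more ALDH1A message than the bud in every library, and among ES-derived cells the bud held more than either mesenchyme.

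**Figure D2:**
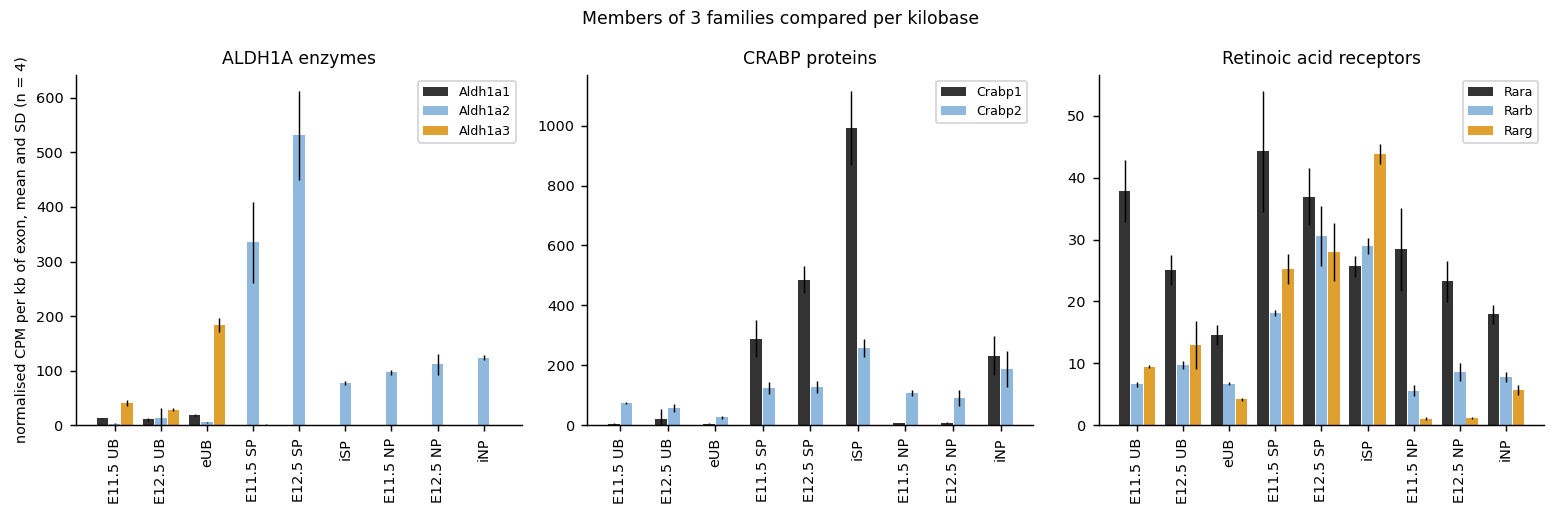
Bars give the mean and error bars the SD over 4 libraries of normalised CPM per kilobase of exon (y axis, from 0) for the genes of each family in the 9 groups (x axis). *Aldh1a2* is the ALDH1A gene of the mesenchymal groups and *Aldh1a3* that of the ureteric bud groups, with eUB at 184 against 40.8 in E11.5 UB; the wide error bars of E12.5 UB come with its replicate 1.

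The CRABP proteins bind retinoic acid in the cytoplasm. *Crabp1* (chromosome 9, 54764748 to 54773110, plus strand) was a stromal gene among ex-fetu cells, at 197, 190, 242 and 297 in E11.5 SP, 348 to 434 in E12.5 SP and 5.37 to 7.68 in E11.5 NP. In iSP cells it was at 925, 692, 761 and 803, above every other library. In iNP cells it was at 190, 257, 146 and 150, which overlaps E11.5 SP and is far from the NP range. The iNP libraries also had *Pdgfra* at 17.7 to 44.9 against 1.98 to 3.04 in E11.5 NP, while the summed level of the 7 stromal markers was 285 to 366 in iNP and 290 to 332 in E11.5 NP. *Crabp1* was at most 5.79 in E11.5 UB and at most 4.83 in eUB.

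*Crabp2* (chromosome 3, 87948666 to 87953376, plus strand), whose product is known to hand retinoic acid to its receptors, was detected in all 36 libraries and differed less between types. It ranged from 123 to 151 in E11.5 NP and from 140 to 198 in E11.5 SP. It reached 297 to 385 in iSP and 194 to 362 in iNP, and fell to 45.1, 33.2, 30.6 and 31.9 in eUB, against 93.8 to 106 in E11.5 UB. Per kilobase, *Crabp1* was 69.6% ± 1.41 of the CRABP sum in E11.5 SP, 6.64% ± 0.952 in E11.5 NP and 55.4% ± 1.43 in iNP.

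*Rara* (chromosome 11, 98927818 to 98974942, plus strand) encodes the most widely expressed of the receptors. It lay between 56.7 and 233 in the 36 libraries, and all 8 neighbouring pairs in the order of its group means overlapped in range. Its lowest groups were iNP (79.4, 70.4, 86.6 and 76.6) and eUB (56.7, 71.1, 68.8 and 59.1), and the eUB values were below every ex-fetu UB library (94.2 to 188).

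*Rarg* (chromosome 15, 102234938 to 102257517, minus strand) separated the lineages widely. It was at 97.7, 122, 104 and 107 in E11.5 SP but at 5.85, 4.36, 4.26 and 3.45 in E11.5 NP, and UB libraries at E11.5 lay between them, at 39.4 to 41.6. In the ES-derived cells it was at 179 to 195 in iSP, at 28.7, 23.5, 23.6 and 20.9 in iNP and at 18.3, 19.2, 17.3 and 16.6 in eUB. Thus iNP libraries were above all ex-fetu NP libraries, and eUB libraries were below all ex-fetu UB libraries.

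*Rarb* (chromosome 14, 16430839 to 16819156, minus strand) encodes the receptor that is also a classic direct target of retinoic acid signalling. The RefSeq window of 250 bases before to 50 after a gene's start (GRCm38.p6) was available for 7 of the 10 genes, in 12 windows, and was searched on both strands for GTTCA or GGTCA, followed by 6 bases and again GTTCA or GGTCA. These are the last 5 letters of each receptor half-site. The letter before them was left free, so that 6 bases between the searched letters is a spacing of 5 between half-sites. Of the 7 genes only *Rarb* had a match, as did 0.247% of all 32851 windows. The same letters with 2 or with 3 bases between them, which are spacings of 1 and 2, were in none of the 12 (0.402% and 0.399% of all windows). Among the other genes of the route, *Cyp26a1*, another known direct target, had the match in its window. Both stretches are printed below because the receptors described here are known to read such repeats, with the searched letters of each half-site in capitals. The *Rarb* stretch is at chr14:16575506-16575535, on the gene's own minus strand, with its repeat 52 to 37 bases before the RefSeq start and inside a 5′ untranslated exon of GENCODE. The *Cyp26a1* stretch is at chr19:37697769-37697798 and is read on the minus strand, opposite to the gene.
Rarb: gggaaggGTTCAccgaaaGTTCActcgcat
Cyp26a1: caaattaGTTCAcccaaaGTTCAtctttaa

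*Rarb* was at 94.5, 96.7, 98.4 and 92.5 in E11.5 SP and at 124, 182, 174 and 165 in E12.5 SP. It was at 159, 143, 153 and 156 in iSP, above all E11.5 SP libraries. E12.5 SP replicate 1, at 124, was below every iSP library, and the other 3 E12.5 SP libraries were above every one. In E11.5 UB it was at 34.9, 38.0, 34.0 and 32.6, and in eUB at 33.7, 35.7, 37.0 and 35.2, so that the eUB and E11.5 UB ranges overlapped. In NP cells it was at 26.8 to 36.2 at E11.5, 39.5 to 56.3 at E12.5 and 37.4 to 46.6 in iNP. These values are uncertain in one respect: *Rarb* shares 1793 exonic bases with *Top2b* on the opposite strand, and the use of strand in counting was not stated. *Top2b* was at 150 to 496 in the 36 libraries, and its group means at E11.5 and E12.5 were 232 and 273 in UB, 398 and 400 in SP and 360 and 360 in NP. In eUB, iSP and iNP they were 192, 333 and 281. Per kilobase, *Rara* made up 80.6% ± 3.47 of the receptor sum in E11.5 NP, and *Rarg* 2.99% ± 0.214, whereas *Rarg* was the leading receptor in iSP at 44.5% ± 0.193.

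*Cyp26b1* (chromosome 6, 84571414 to 84593908, minus strand) encodes an enzyme that clears retinoic acid. It was lower in ex-fetu mesenchyme than in the ES-derived groups. The E11.5 SP libraries were at 14.6, 15.8, 5.84 and 4.34, and E11.5 NP libraries, at 18.1, 7.12, 8.83 and 1.95, overlapped them. At E12.5 it was at 7.85 to 15.8 in SP and 1.82 to 4.04 in NP. UB libraries at E11.5 stayed between 9.99 and 12.3, and those at E12.5 were at 21.7, 29.5, 21.9 and 31.0, a range that overlaps iNP. In iSP it was at 80.4, 80.1, 77.6 and 74.5, in eUB at 73.7, 70.9, 66.6 and 68.2, and in iNP at 27.01, 19.1, 27.5 and 22.2. Each of the 3 ES-derived groups was above all ex-fetu libraries of its own type.

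The first comparison asked how far ES-derived cells differed from their E11.5 counterparts. In eUB against E11.5 UB cells 8 of the 10 genes were called, 5 higher and 3 lower. Of all 13956 genes tested 60.5% were called, 32.1% higher and 28.5% lower. The breakdown gene *Cyp26b1* (log2 difference 2.55, SE 0.08, adjusted p = 2.34e-08) and the synthesis gene *Aldh1a3* (2.17, SE 0.10, adjusted p = 1.37e-07) rose most. *Rdh10* (0.70), *Aldh1a2* (0.68) and *Aldh1a1* (0.54) also rose, and the *Aldh1a2* call was lost in a fit of all 36 libraries (adjusted p = 0.121, the highest of a range from 9.92e-04 over the alternatives). *Crabp2* fell by 1.48 (SE 0.12), *Rara* by 1.35 (SE 0.11) and *Rarg* by 1.13 (SE 0.08), with adjusted p of 4.16e-06, 6.40e-06 and 1.48e-06. *Rarb* differed by 0.02 (SE 0.07, adjusted p = 0.812) and *Crabp1* by 0.35 (SE 0.35, adjusted p = 0.418), neither of which passed the test. The summed level of the 8 ureteric bud markers was 2136 to 2375 in eUB and 2936 to 3198 in E11.5 UB. All E11.5 UB libraries carried macrophage markers, 5 genes with sums of 43.4 to 69.0 against 0.258 to 0.426 in eUB; their part was not tested.

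In iSP against E11.5 SP cells all 9 genes tested were called, 5 higher and 4 lower. Without *Aldh1a3*, which passed the filter through the E11.5 SP libraries, 8 of 8 were called, 5 higher and 3 lower. Of all 13916 genes tested 67.6% were called, 35.5% higher and 32.1% lower. Synthesis genes fell: *Aldh1a2* by 2.08 (SE 0.14, adjusted p = 1.69e-06), *Aldh1a3* by 1.63 (SE 0.29) and *Rdh10* by 1.48 (SE 0.15). *Cyp26b1* rose by 3.001 (SE 0.34, adjusted p = 4.22e-05), *Crabp1* by 1.79 (SE 0.15) and *Crabp2* by 1.05 (SE 0.12). Among the receptors *Rarg* (0.80) and *Rarb* (0.67) rose and *Rara* fell by 0.76. The median size of the difference was 1.48 over the 9 genes, *Aldh1a3* among them, and 0.54 over all genes tested. It was 0.91 and 0.41 in eUB against E11.5 UB, and 1.03 and 0.53 in iNP against E11.5 NP. Between E12.5 and E11.5 NP it was 0.18 and 0.19. The summed level of the 7 stromal markers was itself lower in iSP, at 1441 to 1542 against 2656 to 4393 in E11.5 SP, and that of the 8 nephron progenitor markers was higher, at 316 to 345 against 186 to 245. The E11.5 SP libraries carried red blood cell genes, 5 markers with sums from 57.0 to 1213, which were at 0 in all iSP libraries; their part was not tested.

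In iNP against E11.5 NP cells all 9 genes tested were again called, 7 higher and 2 lower. Without *Aldh1a3*, which passed the filter through the iNP libraries, 8 of 8 were called, 6 higher and 2 lower. Of all 14064 genes tested 64.7% were called, 35.5% higher and 29.2% lower. *Crabp1* rose by 4.68 (SE 0.18, adjusted p = 7.35e-08), *Rarg* by 2.21 (SE 0.15, adjusted p = 2.05e-06), *Cyp26b1* by 1.59 (SE 0.46) and *Aldh1a3*, still low, by 1.53 (SE 0.15). *Crabp2* (0.75), *Rarb* (0.47) and *Aldh1a2* (0.35) rose by less, the last of these with adjusted p = 0.00334 in limma here and 0.423 in a fit of all 36 libraries, and the range over the alternatives was 1.47e-04 to 0.423. *Rdh10* fell by 1.03 (SE 0.10) and *Rara* by 0.64 (SE 0.15). Although CD31-positive cells had been gated out, the iNP libraries had higher sums of endothelial markers (43.1 to 72.9 against 8.24 to 24.1 in E11.5 NP) and of neural markers (24.9 to 38.9 against 6.77 to 16.8), and a lower nephron progenitor sum, which was 609 in iNP replicate 2, 855 to 1015 in the other iNP libraries and 1435 to 1575 in E11.5 NP; their part was not tested.

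**Figure D3:**
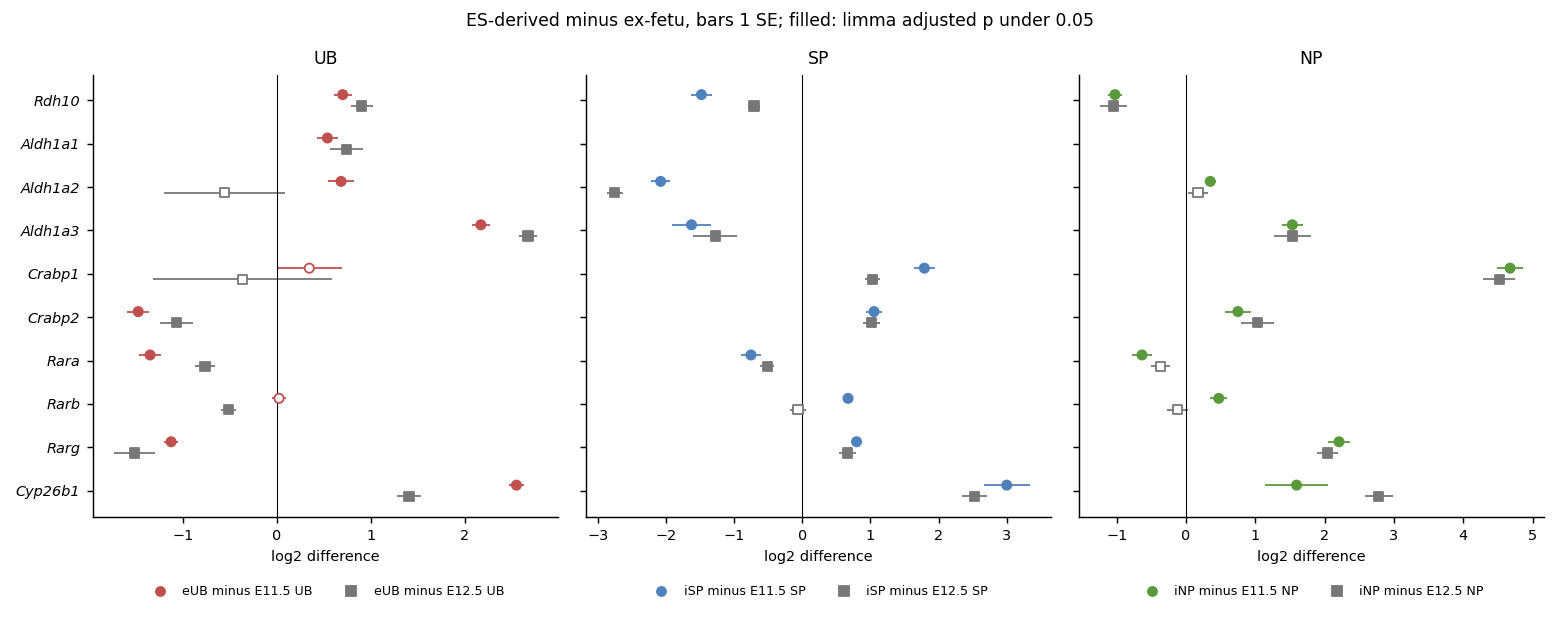
Log2 differences (x axis) of ES-derived minus ex-fetu cells for each gene (y axis), with E11.5 (coloured circles) and E12.5 (grey squares) as comparator, error bars of 1 SE, and filled symbols where the limma adjusted p was under 0.05. *Cyp26b1* lies right of 0 in all 3 panels, *Rara* left of 0 in all 3, and *Rdh10* changes side between UB and the mesenchymes; *Aldh1a1* was not tested in SP and NP.

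The differences from E11.5 cells themselves varied between the 3 types. An interaction test over 24 libraries called 9 of the 10 genes, against 61.3% of 15611 genes tested. *Aldh1a1*, one of the 9, passed the filter of this test through the bud libraries; its low SP levels, in E11.5 SP and iSP, are given above, and it was not tested within SP or NP. *Rarg* (adjusted p = 1.5e-13), lower in eUB and higher in iSP and iNP, and *Aldh1a2* (8.7e-12), lower in iSP and higher in eUB and iNP, had the smallest values. *Rdh10* was higher in eUB and lower in iSP and iNP (1.1e-09), and *Crabp2* was lower in eUB and higher in iSP and iNP (1.9e-09). For *Cyp26b1*, which was higher in each type, the interaction was not called here (adjusted p = 0.0632). It was called in the fit of all 36 libraries, with the replicate block, with quantile normalisation, in edgeR, and without E11.5 SP replicate 1 or 2 or E11.5 NP replicate 4 (adjusted p of 0.00126 to 0.165 over the alternatives).

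The same ES-derived libraries were also compared with E12.5 cells, a comparison that shares them with the one before. In eUB against E12.5 UB 8 of 10 genes were called, 4 in each direction (44.4% of all genes tested, 23.3% higher and 21.2% lower). *Aldh1a3* was higher by 2.68 (SE 0.09), *Cyp26b1* by 1.41 (SE 0.13) and *Rdh10* by 0.90 (SE 0.12), and *Rarb*, not called against E11.5, was lower at -0.52 (SE 0.08, adjusted p = 0.00106). Without E12.5 UB replicate 1 the differences of 2 genes turned: *Aldh1a2* from -0.56 to 0.19, called in neither case, and *Crabp1* from -0.37 to 0.76, which was then called (adjusted p = 0.0372). In that fit 9 of the 10 genes were called, beside 51.5% of all genes tested.

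In iSP against E12.5 SP 8 of the 9 genes tested were called, 4 in each direction (62.1% of all genes tested, 33.3% higher and 28.8% lower). Without *Aldh1a3*, which passed the filter through the E12.5 SP libraries, 7 of 8 were called, 4 higher and 3 lower. *Aldh1a2* was lower in iSP, at -2.76 (SE 0.11, adjusted p = 1.16e-07), and *Cyp26b1* was higher by 2.53 (SE 0.19). *Rarb* differed by -0.06 (SE 0.12, adjusted p = 0.659). Without E12.5 SP replicate 1 the *Rarb* difference was -0.18 and was called (adjusted p = 0.0326, the lowest of a range up to 0.990 over the alternatives), one of 9 genes called of 9, beside 69.9% of all genes tested. In iNP against E12.5 NP 6 of 9 were called, 5 higher and 1 lower (44.3% of all genes tested, 25.6% higher and 18.7% lower), led by *Crabp1* (4.52, SE 0.23), *Cyp26b1* (2.78, SE 0.20) and *Rarg* (2.04, SE 0.15). Without *Aldh1a3*, which passed the filter through the iNP libraries, 5 of 8 were called, 4 higher and 1 lower. *Rdh10* was the gene called lower, at -1.05 (SE 0.19).

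The next comparison asked how stromal and nephron progenitors differed within each source. At E11.5, 6 of the 9 genes tested were called between SP and NP, all higher in SP. Of 13655 genes tested 43.1% were called, 22.2% higher and 21% lower. The 6 were *Crabp1* (5.01, SE 0.16, adjusted p = 9.12e-08), *Rarg* (4.32, SE 0.14, adjusted p = 9.51e-08), *Aldh1a2* (1.76, SE 0.14), *Rarb* (1.67, SE 0.11), *Aldh1a3* (1.44, SE 0.29) and *Rara* (0.63, SE 0.19, adjusted p = 0.0233). Without *Aldh1a3*, which passed the filter through the E11.5 SP libraries, 5 of 8 were called, all higher. The *Rara* call was lost when E11.5 SP replicate 1 or 2, or E11.5 NP replicate 2, 3 or 4, was left out, with adjusted p of up to 0.0721 (from 6.32e-04 over all alternatives).

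At E12.5, 7 of 9 were called, 6 higher and 1 lower in SP. Of 13772 genes tested 34.8% were called, 17.8% higher and 17% lower. *Crabp1* (5.61, SE 0.19), *Rarg* (4.29, SE 0.16), *Aldh1a2* (2.25, SE 0.17), *Cyp26b1* (1.93, SE 0.25), *Rarb* (1.81, SE 0.16) and *Rara* (0.66, SE 0.14) were higher, and *Rdh10* was lower at -1.09 (SE 0.20, adjusted p = 0.00217). *Aldh1a3* was not called, but was without E12.5 SP replicate 1, at 1.46, without E12.5 NP replicate 1 and in the fit of all 36 libraries (limma adjusted p of 0.00156 to 0.153 over the alternatives). Same-numbered E12.5 SP and NP libraries deviated together (correlations of 0.519 to 0.682), and the values above did not use this pairing. Blocking on the replicate number called 7961 genes in place of 4789, and 8 of the 9 genes in place of 7. The gene gained was *Crabp2*, higher in SP by 0.51, with adjusted p = 0.0756 without and 0.00978 with the block in limma (0.00978 to 0.198 over the alternatives).

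Between iSP and iNP cells 8 of 9 were called, 5 higher and 3 lower in iSP. Without *Aldh1a3*, which passed the filter through the iNP libraries, 7 of 8 were called, 5 higher and 2 lower. Of 14052 genes tested 30.7% were called, 14.2% higher and 16.5% lower. *Rarg* (2.91, SE 0.10), *Crabp1* (2.12, SE 0.18), *Rarb* (1.87, SE 0.09), *Cyp26b1* (1.68, SE 0.12) and *Rara* (0.51, SE 0.09) were higher in iSP. *Aldh1a2* went against both ex-fetu ages, at -0.68 (SE 0.07, adjusted p = 7.52e-05), although this call was lost in a fit of all 36 libraries (adjusted p = 0.181, the highest of a range from 1.95e-06 over the alternatives). *Aldh1a3* also had the opposite sign (-1.72, SE 0.15, adjusted p = 1.93e-05), and *Rdh10* was lower, at -0.75 (SE 0.08). The defining stromal marker *Foxd1* was low in iSP cells, as given above. The neural sum was 1.28 to 2.44 in iSP and 24.9 to 38.9 in iNP. The endothelial sum was 30.3 to 47.1 in iSP and 43.1 to 72.9 in iNP. Their part was not tested.

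**Figure D4:**
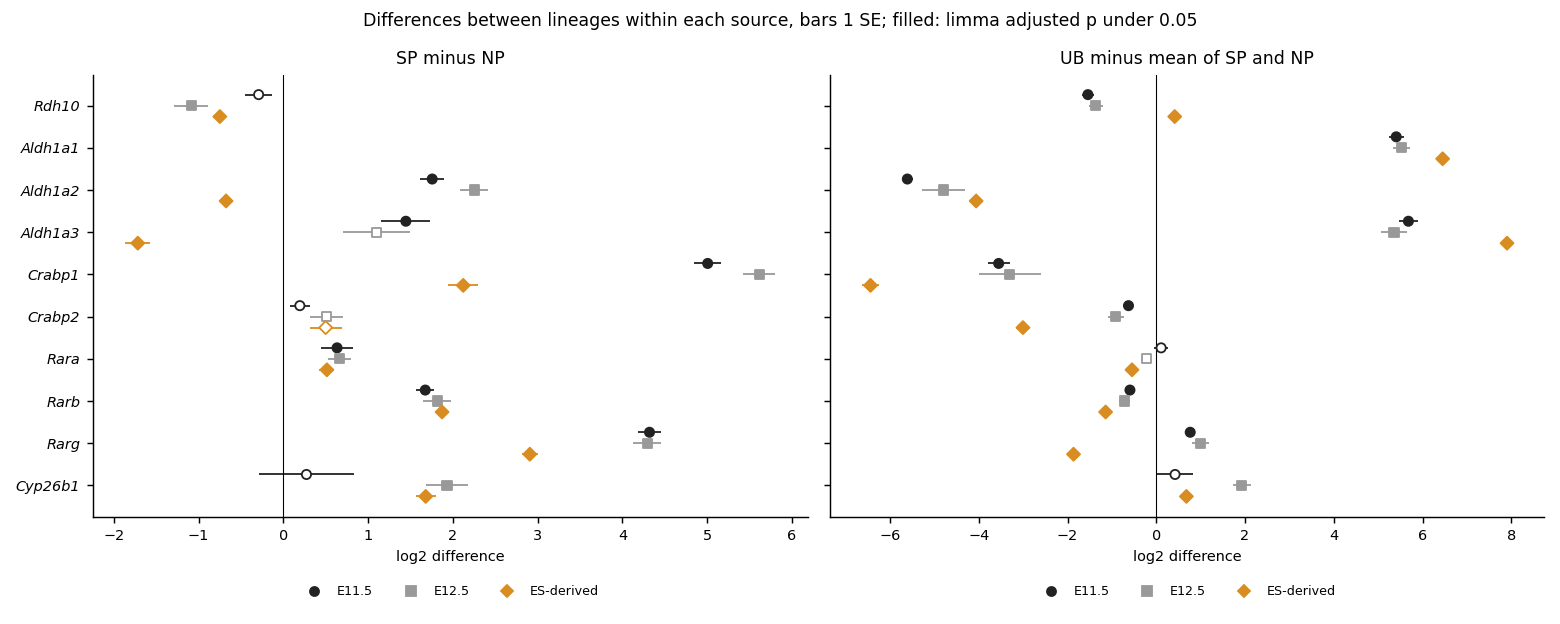
Log2 differences (x axis) between lineages for each gene (y axis) within E11.5 (black circles), E12.5 (grey squares) and ES-derived cells (orange diamonds), with error bars of 1 SE and filled symbols where the limma adjusted p was under 0.05. In the left panel the *Aldh1a2* and *Aldh1a3* diamonds lie left of 0 and the ex-fetu symbols right of it; in the right panel *Rarg* and *Rdh10* show the ES-derived symbol on the other side of 0, and the positions of *Aldh1a1* depend on the pseudocount because its mesenchymal values are near 0.

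Ureteric bud cells were then compared with the mean of the SP and NP cells of their source. At E11.5 8 of 10 genes were called, 3 higher and 5 lower (56.4% of 14500 genes tested, 26.9% higher and 29.5% lower), at E12.5 9 were called, 4 higher and 5 lower (40.3% of 14543, 20.9% higher and 19.4% lower), and in ES-derived cells all 10, 4 higher and 6 lower (62.9% of 14733, 30.3% higher and 32.6% lower). *Aldh1a3* was higher in the bud by 5.68 (SE 0.22), 5.36 (SE 0.30) and 7.90 (SE 0.11) in E11.5, E12.5 and ES-derived cells, with no overlap of its bud and mesenchymal libraries. *Aldh1a1* passed the filter here only through the bud libraries, so that it had to differ. Without it 7, 8 and 9 of the other 9 genes were called, 2, 3 and 3 of them higher. *Aldh1a2* was lower at -5.61 (SE 0.12), -4.79 (SE 0.49) and -4.06 (SE 0.08), and *Crabp1* at -3.55, -3.30 and -6.44. Without E12.5 UB replicate 1 the E12.5 values of *Aldh1a2* and *Crabp1* became -5.54 and -4.43, and *Aldh1a1* was not tested because the 3 remaining UB libraries are fewer than the filter asks for. The *Crabp1* call at E12.5 was lost in edgeR (adjusted p = 0.159, the highest of a range from 3.36e-09 over the alternatives).

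*Rarg* and *Rdh10* turned direction between ex-fetu and ES-derived cells in this comparison. *Rarg* was higher in the bud at E11.5 (0.77, SE 0.10) and E12.5 (1.004, SE 0.19) and lower in eUB (-1.86, SE 0.08, adjusted p = 3.09e-10). *Rdh10* was lower in the bud at E11.5 (-1.54, SE 0.13) and E12.5 (-1.37, SE 0.16) and higher in eUB (0.42, SE 0.08, adjusted p = 3.40e-04). *Cyp26b1* was higher in the bud at E12.5 (1.93, SE 0.20) and in eUB (0.68, SE 0.09), and not called at E11.5 (adjusted p = 0.412).

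The last comparison was of the fetal ages, and shares its libraries with the comparisons of ES-derived with ex-fetu cells. Between UB samples titled E12.5 and E11.5, whose source labels give the ages the other way round, 5 of 10 genes were called, 2 higher and 3 lower (26.5% of 13772 genes tested, 14.2% higher and 12.3% lower). *Cyp26b1* rose by 1.15 (SE 0.14, adjusted p = 8.48e-04) and *Rarb* by 0.54 (SE 0.08), while *Rara* fell by 0.58 (SE 0.11), *Aldh1a3* by 0.50 (SE 0.10) and *Crabp2* by 0.41 (SE 0.13, adjusted p = 0.04997, at the threshold). The *Crabp2* call was lost without any 1 of the 4 E11.5 UB replicates or of E12.5 UB replicates 2, 3 and 4 (adjusted p of up to 0.123, and from 3.29e-04 over all alternatives). It was also lost with all 36 libraries in 1 fit, the replicate block, no filter, quantile normalisation and edgeR (adjusted p of 0.0632 to 0.122). Without E12.5 UB replicate 1, 7 of the 10 were called, while the share of all genes called went from 26.5% to 44%: *Rarg* at 0.63 and *Rdh10* at -0.30 were added, and *Crabp1* turned from 0.71 to -0.42, called in neither case.

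In SP cells 4 of 9 genes were called between E12.5 and E11.5, 3 higher and 1 lower (8.52% of 13633 genes tested, 3.73% higher and 4.8% lower). *Rarb* (0.73, SE 0.13, adjusted p = 0.0112), *Crabp1* (0.77, SE 0.16, adjusted p = 0.0181) and *Aldh1a2* (0.67, SE 0.18, adjusted p = 0.0457) rose and *Rdh10* fell by 0.77 (SE 0.18, adjusted p = 0.0266). The stromal marker sum was 2656 to 4393 in E11.5 SP and 3587 to 6244 in E12.5 SP, and the red blood cell sum 57.0 to 1213 and 239 to 2409. The ureteric bud sum was 122 to 282 and 81.1 to 117, and the neural sum 10.01 to 16.4 and 3.25 to 4.02, in the same order; their part was not tested. The number called fell to 1 when some libraries were left out: the *Aldh1a2* call was lost without E11.5 SP replicate 1, 2 or 3 or E12.5 SP replicate 2, 3 or 4, the *Crabp1* call without the same libraries, and the *Rdh10* call without the same libraries other than E12.5 SP replicate 2. The *Aldh1a2* call was also lost with all 36 libraries in 1 fit, the replicate block and no filter, and the *Crabp1* call with all 36 libraries. Over all alternatives the adjusted p ranged from 0.0143 to 0.214 for *Aldh1a2*, from 0.00458 to 0.376 for *Crabp1* and from 3.48e-04 to 0.0909 for *Rdh10*. In NP cells only *Rarb* was called of 9 (6.34% of 13414 genes tested, 2.74% higher and 3.59% lower), at 0.59 (SE 0.15, adjusted p = 0.0455), a call lost without E11.5 NP replicate 1, 2, 3 or 4 or E12.5 NP replicate 3 or 4 (adjusted p of up to 0.135, and from 4.78e-04 over all alternatives). *Aldh1a2* was also called without E12.5 NP replicate 1, at 0.31 (adjusted p = 0.0317, the lowest of a range up to 0.840). *Cyp26b1* was also called, as lower at E12.5, in the fit of all 36 libraries and without E11.5 NP replicate 4 (adjusted p of 0.0246 to 0.335 over the alternatives).

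Whether the change with age differed between SP and NP was tested as an interaction, in which limma called 0 of 9 genes and edgeR 0, while 4 had an unadjusted p under 0.05; 2.69% of 14438 genes were called, 1.09% higher and 1.6% lower. The difference was 1.66 (SE 0.67) for *Cyp26b1*, 0.61 (SE 0.26) for *Crabp1*, 0.50 (SE 0.23) for *Aldh1a2* and -0.79 (SE 0.27) for *Rdh10*. Without E12.5 NP replicate 1 *Rdh10* was called (adjusted p = 0.0334, within a range of 0.0231 to 0.297 over the alternatives). Of these 9 genes *Rdh10* and *Cyp26b1* were called in the fit of all 36 libraries (adjusted p = 0.0231 and 0.0408, the latter the lowest of a range up to 0.432).

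Other genes of the route were followed in 6 lists with 32 genes in all (uptake and storage, interconversion, breakdown, carriers and partners, coregulators, and genes known to respond to retinoic acid), of which 31 were in the table. Against E11.5 cells, 7 were higher and 3 lower of 23 tested in eUB, 6 higher and 3 lower of 22 in iSP, and 12 higher and 6 lower of 23 in iNP, where 60.5%, 67.6% and 64.7% of all genes were called. Against E12.5 cells, 5 were higher and 3 lower of 24 in eUB, 9 were called in each direction of 22 in iSP, and 12 of 23 were called in iNP, all of them higher, where 44.4%, 62.1% and 44.3% of all genes were called. These counts hold genes that reached 1 in all 4 libraries of the higher group alone and so passed the filter through it: *Cyp26a1*, *Rdh12* and *Tgm2* among the 12 higher in iNP against E11.5 NP, and 4 of the 12 against E12.5 NP. In eUB and iSP such genes were 1 higher and 1 lower against E11.5 cells in each, and 1 higher and 1 lower in eUB and 1 higher and 2 lower in iSP against E12.5 cells.

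Of the 10 genes known to respond to retinoic acid, 6 rose and 1 fell of 9 tested in eUB against E11.5 cells, 3 rose and 2 fell of 8 in iSP, and 5 rose and 1 fell of 9 in iNP. Shares of all genes higher and lower were 32.1% and 28.5% in eUB, 35.5% and 32.1% in iSP, and 35.5% and 29.2% in iNP. *Tgm2* among those that rose in eUB, *Cyp26a1* that fell there, *Ret* that fell in iSP, and *Cyp26a1* and *Tgm2* in iNP passed the filter through the higher group alone. Against E12.5 cells 3 of 9 were called in eUB, all higher, 1 rose and 3 fell of 7 in iSP, and 6 of 9 were called in iNP, all higher. Of these, *Cdx1* in eUB, *Ret* in iSP, and *Cyp26a1* and *Ret* in iNP passed through the higher group alone, and the shares of all genes higher and lower were 23.3% and 21.2%, 33.3% and 28.8%, and 25.6% and 18.7%. Of the 6 coregulators, 1 was lower in iSP and 4 in iNP against E11.5 cells, and 1 in eUB and 5 in iSP against E12.5 cells, beside the shares of all genes lower just given. In eUB against E11.5 UB limma called 0 of the 6, with 1 at an unadjusted p under 0.05 and 1 called by edgeR, and in iNP against E12.5 NP it called 0, with 1 at an unadjusted p under 0.05 and 0 called by edgeR. With so few genes a list these counts are a description. Some listed genes have other roles: *Ret*, the GDNF receptor of the bud, and *Tgm2*, a transglutaminase, stand in the responsive list.

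By the rule of a difference above 2 in size, 4 genes of these lists are named; of them *Rdh14* alone was at 1 or more in all libraries of both groups compared. *Tgm2* rose by 2.50 (SE 0.15) in iNP, from a range of 0.615 to 1.41 in E11.5 NP to one of 9.54 to 13.2. *Cyp26a1*, the breakdown gene with the repeat printed above, passed the filter in that comparison only through the iNP libraries, so that it had to differ: it was at 3.66, 6.36, 4.28 and 3.16 there and under the limit of detection in the 4 E11.5 NP libraries. It was at 2.70 to 4.76 in E11.5 UB and 0.817 to 1.03 in eUB. *Rdh14*, a retinol dehydrogenase, rose by 2.06 (SE 0.11) in iSP, from a range of 2.65 to 3.61 in E11.5 SP to one of 14.6 to 17.0. *Ret* fell by 3.66 (SE 0.40) in iSP, from 6.22 to 29.1 in E11.5 SP to 0.193 to 1.075; the ureteric bud markers in E11.5 SP are given above, and their part was not tested.

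For each of the 10 genes the 3 genes with the most similar pattern were taken from 9807 candidates. Similarity was Pearson's r of the log2 values over the 36 libraries. Candidates reached 1 in 4 or more libraries, and their group means spanned at least 1 on the log2 scale. They had thus been selected to vary between groups. A group mean of at least 5 was asked of the 10 genes only, and all 10 had it. The r values describe these libraries, which share lineages and sources and are not independent. *Aldh1a1* followed *Prom2* (0.997), *Grhl2* (0.996) and *Fev* (0.994), and *Aldh1a3* followed *Fermt1* (0.979), *Fgf12* (0.978) and *Dpp4* (0.976). *Aldh1a2* was nearest to *Itga9* (0.984), *Mxra8* (0.982) and *Frem1* (0.976), and *Crabp1* to *Cd248* (0.984), *Pdgfrb* (0.978) and *Pcolce* (0.978). *Rarb* was nearest to *Dock10* (0.951), *Pcdh18* (0.9402) and *Atrnl1* (0.937), and *Rarg* to *Wnt5a* (0.943), *Smarca1* (0.9398) and *Bcl11a* (0.937). The nearest gene to *Crabp2* was *Isoc2a* (0.943), to *Rara* *Dlgap4* (0.926), to *Rdh10* *Msc* (0.889) and to *Cyp26b1* *Tspan11* (0.887).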

How the data were processed

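The authors trimmed reads of stranded mRNA libraries with Cutadapt and aligned them with STAR; the genome is written GRCh38, although every gene identifier is a mouse one, and the counting program, its use of strand and its filter are not given in the sources used here. The table holds a normalised signal, CPM after scaling by edgeR factors, as the authors deposited it. A second deposited table, which repeats them with the authors' means, fold changes and p-values, was not used. In every library 100% of values were whole multiples of 1 read (within 0.001 read), and reads recovered from them numbered 13.004 to 52.5 M per library; the 3-read limit covers counting error only.

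Gene lengths and positions are from GENCODE vM21 (GRCm38), which held 22642 of the 22761 identifiers (99.5%) and all 10 genes. Genes that reached 1 in 4 or more libraries of a fit were tested on log2(value + 1), which understates changes of low genes. The test was limma 3.58.1, with an intensity trend in the variance prior, run under R 4.3.3 with Benjamini-Hochberg adjustment over all genes tested. Fits used only the groups compared. Replicates were separate mice or differentiation batches, and all pairs differed by more than sampling noise. The genes, lists and tests were chosen with earlier results of these data known: any of the 10 genes could be named in a comparison, and a gene of the lists where it differed by over 2 from E11.5 cells.

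Same-numbered libraries were examined for pairing through the correlations of their deviations. Among pairs of groups compared directly, all correlations exceeded 0.1 for E12.5 SP and NP alone (0.519 to 0.682). UB was not examined against SP or NP. The main fits, also that of E12.5 SP and NP, used no pairing, and the replicate block was an alternative. The iSP and iNP cells shared cultures, but nothing ties their numbers to these. Alternatives were all 36 libraries in 1 fit, the replicate block, a pseudocount of 0.1, no filter or a minimum of 5, DESeq2 1.42.0 size factors, quantile normalisation, edgeR 4.0.16 on recovered reads, and each library left out. The fits were tested on simulated data. Outlying libraries were sought in the 89 of 90 gene and group sets whose highest value passed the limit of detection. Transcripts were compared with BLAST 2.17.0; promoter windows are RefSeq's. Other steps used Python 3.11.15, numpy 2.4.6 and pandas 2.3.3.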

Additional observations from a re-analysis of the deposited data

Results flagged for a closer look

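In 9 of 89 sets of 4 libraries, the highest or lowest library lay farther from the others than the 95% critical value of Dixon's test allows; chance flags about 1 set in 20. Of these, 4 were E12.5 UB replicate 1: *Crabp1* at 58.2 (others at most 2.32), *Aldh1a2* at 92.3, *Rdh10* at 99.0 and *Rarb* at 45.7, the last the lowest of its group. E12.5 NP replicate 1 was lowest in *Aldh1a2*, at 188, and highest in *Aldh1a3*, at 3.05. *Rarb* was at 36.2 in E11.5 NP replicate 3, *Crabp2* at 123 in E11.5 NP replicate 4, and *Aldh1a1* at 2.15 in E11.5 SP replicate 3. The cause of none of these values was tested.

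The differences between ES-derived and E11.5 cells varied between UB, SP and NP for 9 genes (limma interaction test, adjusted p). The values were 1.5e-13 for *Rarg*, 8.7e-12 for *Aldh1a2*, 5.0e-10 for *Aldh1a3*, 1.1e-09 for *Rdh10*, 1.9e-09 for *Crabp2*, 6.6e-09 for *Crabp1*, 3.0e-05 for *Aldh1a1*, 3.3e-04 for *Rarb* and 0.0109 for *Rara*. *Aldh1a1* passed the filter of this test through the UB libraries and was not tested within SP or NP; it was at 0.535 to 2.15 in E11.5 SP and at most 0.0358 in iSP. *Rara* was lower in all 3 ES-derived groups, by 1.35 in eUB, 0.76 in iSP and 0.64 in iNP.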

How the results depend on the processing

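Of the called gene results, 103 kept their call in every alternative in which they were tested, 12 lost it in at least 1 and 0 reversed. Of the 12, 10 are described above; *Crabp1* in iSP against E12.5 SP and *Aldh1a3* between the ages in UB lost it in the fit of all 36 libraries alone (limma adjusted p = 0.113 and 0.237). Some differences that were not called became so: *Rara* in iNP against E12.5 NP in 5 alternatives (adjusted p from 0.0180), *Crabp2* between iSP and iNP with all 36 libraries or without iNP replicate 2, *Rdh10* between E11.5 SP and NP without E11.5 SP replicate 1, *Rara* between E12.5 UB and mesenchyme with the replicate block, *Aldh1a2* between the ages in UB with all 36 libraries, and those named above. The age comparisons depended most on the processing. With all 36 libraries in 1 fit, 3141 genes were called in SP, 1572 in NP and 780 in the interaction, with 2 of the 10 genes in NP and 3 in the interaction. The 3 were *Rdh10*, *Cyp26b1* and *Aldh1a1*. *Aldh1a1* passed the filter of that fit through the UB libraries and was at most 2.15 in any SP or NP library. With a minimum of 5, the genes called in SP, NP and the interaction numbered 762, 469 and 222. In NP, 0 of the 10 genes were called by limma with no filter, a minimum of 5, quantile normalisation or the replicate block. Leaving out 1 library moved the genes called to between 2332 (without E11.5 UB replicate 1) and 5982 (without E12.5 UB replicate 1) in UB. In SP they ranged from 392 to 2889, all libraries but E11.5 SP replicate 4 moving them by over 1.5 times, and in NP from 147 to 2249, all but E12.5 NP replicate 2. In the interaction they ranged from 204 to 820, moved so by E11.5 SP replicates 2, 3 and 4, E12.5 SP replicates 1, 3 and 4, E11.5 NP replicate 2 and E12.5 NP replicate 4. The 10 genes called ranged from 1 to 4 in SP, 0 to 2 in NP and 0 to 1 in the interaction. The cause was not tested.

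The replicate block gave 7961 genes between E12.5 SP and NP, where the pairing held, and 2365 between the ages in UB, where samples share only a number.

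Differences that were not called could reverse. *Rarb* in eUB against E11.5 UB became -0.0040 with DESeq2 size factors, -0.072 with quantile normalisation and -0.0090 in edgeR (-0.0077 to 0.063 with libraries left out), and in iSP against E12.5 SP 0.11 with quantile normalisation. With age in NP, *Rdh10* became -0.0038 with DESeq2 size factors and *Aldh1a3* 0.12 in edgeR. With libraries left out, *Aldh1a2* and *Crabp1* ranged from -0.91 to 0.19 and -0.82 to 0.76 in eUB against E12.5 UB, and *Crabp1* from -0.42 to 1.16 with age in UB. With age, *Crabp2* ranged from -0.043 to 0.13 and *Aldh1a3* from -0.57 to 0.0068 in SP, and *Rdh10* from -0.14 to 0.20 and *Aldh1a3* from -0.29 to 0.13 in NP. *Cyp26b1* ranged from -0.22 to 0.68 between E11.5 SP and NP. Values under the 3-read limit, such as *Aldh1a1* in iSP, could not be told from 0 at this depth.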

Other observations

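*Stra6* and *Dhrs3*, 2 further genes of the route, were chosen after their values were seen. *Stra6*, which encodes the receptor for retinol bound to its plasma carrier, was at 348 to 387 in iSP against 113 to 159 in E11.5 SP (limma log2 difference 1.49, SE 0.10, adjusted p = 2.26e-06), and was also higher in eUB (0.93, SE 0.07) and iNP (0.83, SE 0.13). *Dhrs3*, whose product reduces retinal to retinol, was at 56.9 to 62.8 in eUB and 15.1 to 16.9 in E11.5 UB (1.83, SE 0.07). E12.5 UB replicate 1 was at 33.5, below eUB, and the other 3 E12.5 UB libraries were all above eUB. The difference from E12.5 UB was -0.10 (SE 0.27, limma adjusted p = 0.790), and without replicate 1, a fit chosen after seeing the data, it was -0.40 (SE 0.10, adjusted p = 0.00903). In iSP it was at 94.8 to 107, against 23.3 to 57.5 in E11.5 SP (1.44, SE 0.23, adjusted p = 3.37e-04). From E12.5 SP the iSP difference was -0.04 (SE 0.23, adjusted p = 0.886), and without E12.5 SP replicate 1, at 59.3 against 118 to 133 in the others, it was -0.31 (SE 0.07, adjusted p = 0.00303). In iNP against E11.5 NP the *Dhrs3* difference was 0.39 (SE 0.19, adjusted p = 0.0953), which was not called. Within SP it rose by 1.48 (SE 0.31, adjusted p = 0.0201) from E11.5 to E12.5.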
